A study of Mus musculus with 12 samples.

Results

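The cytosolic ribosomal protein genes were taken as the 86 protein-coding genes, among 46517 genes counted, whose mouse symbol is Rpl or Rps followed by a number, together with Rplp0, Rplp1, Rplp2 and Rpsa. Symbols that mark pseudogenes (-ps) and the Rps6k kinases, which phosphorylate the ribosome but are no part of it, were left out. The 86 members comprised 31 proteins of the small subunit, 43 of the large subunit, the 3 proteins of the P stalk, 8 paralogs of canonical proteins, and Rps19bp1. The last is a nucleolar regulator of the deacetylase Sirt1 and no ribosomal protein, although its symbol fits. The symbols do not take Fau, whose product is a ubiquitin-like fusion that releases a small subunit protein, and it was followed beside the members. Each of the 86 members exceeded 1 CPM in at least 1 sample, the filter that left 15673 genes for testing. Rpl3l passed it through a single KO library. CPM stands for counts per 1000000 reads on genes, with library sizes scaled by the trimmed mean of M-values (TMM).

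Expression was measured by poly(A)-selected RNA-seq in mouse embryonic stem cells (ESCs) of the EomesEGFP reporter line, labelled with a C57BL/6 strain background, either WT or carrying a deletion of Meteor (KO). Meteor is a transcribed enhancer upstream of Eomes, the gene of a transcription factor that specifies mesendoderm, and it was removed with paired guides and the Cas9 nickase, after which single clones were picked and expanded. Day 0 samples were undifferentiated ESCs from cultures kept on mouse embryonic fibroblast feeders, and day 3 samples were cells differentiated as embryoid bodies in hanging drops with ascorbic acid. The 4 groups (WT day 0, KO day 0, WT day 3 and KO day 3) had 3 samples each. The comparisons asked how the RNA of these genes differed between genotypes and between days. KO samples also had at most 0.661 CPM of Upf3b, a factor of nonsense-mediated decay, and lower levels of chromosome 11 genes as a whole. The part of these traits in the KO differences cannot be told apart from that of the Meteor deletion. Comparisons of genotype and of day share samples, so their values are not independent of each other. The labels do not say how many clones the KO samples represent or whether samples of a group came from separate cultures, so p-values measure the spread between these samples, which may be technical.

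A cytosolic ribosome joins a small subunit, which decodes the mRNA, to a large subunit, which forms the peptide bond, and nearly every ribosomal protein is needed in a single copy per particle. Their mRNAs are among the most abundant in growing cells and usually begin with a 5′ terminal oligopyrimidine (TOP) tract, a run of C and T at the cap through which mTOR and Larp1 control their translation together. The mouse genome holds many processed pseudogenes of these genes, since abundant mRNAs are often copied back into DNA, and reads that align equally well to several places were not counted in these tables.

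Sequences around the transcription start, where a TOP tract would lie, are shown for the 3 paralogs that passed the test between genotypes, for the partners Rpl39 and Rpl10, and for Rpl23 and Rpl26, which were lower in KO. RefSeq promoter windows on build GRCm38.p6 were found for 66 of the 86 members (78 windows, since some genes have several starts). A run of at least 8 bases of C or T within 50 bases on either side of the start was present in 59 of the 78 windows (75.6%), against 35.7% of all 32851 windows. On the opposite strand the same run was found in 23.1% of the member windows and 38.1% of all windows. In the 30-base stretches that follow, capitals mark the longest run of C or T inside the 50 bases searched on either side of the start.
Rpl22l1: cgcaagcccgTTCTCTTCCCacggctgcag
Rpl39l: aacacccactgCCTCTCCCTagctcccagg
Rpl10l: tcagtctctatgaTTCCCgcaaggcttgat
Rpl39: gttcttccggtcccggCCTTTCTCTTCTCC
Rpl10: cgtgagcaggcgtgggagcgTCTCTTTTCC
Rpl23: gagtgggcggggCCTCCCgttcatatccca
Rpl26: tcccaaccTCCTCTCCCCTTTCgctccgag
They lie at chr3:28805499-28805528 (plus strand), chr16:10170191-10170220 (plus), chr12:66284429-66284458 (minus), chrX:37085173-37085202 (minus), chrX:74270836-74270865 (plus), chr11:97782404-97782433 (minus) and chr11:68901508-68901537 (plus), in the order shown. The run of Rpl22l1 spanned 10 bases and began 1 base from the annotated start. Those of Rpl39 and Rpl26 held 14 bases each inside the searched stretch, 36 bases after the start and at the far edge before it. The runs of Rpl39, Rpl26 and Rpl10 reached the edge of that stretch, so their lengths are lower bounds. The bases printed before the capitals of Rpl26 continue its run. Rpl23 had no run longer than 6 bases. The paralog Rpl39l had a run of 9 bases that began 26 bases before the start, whereas the paralog Rpl10l had no run longer than 5 bases. A matching run describes these windows and is not evidence that the mRNA starts there.

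The libraries held 17455927 to 23910943 reads on genes, and replicates of a group differed by more than sampling noise (chi-square per degree of freedom 9.7 to 46.4). The transcripts annotated at the deleted locus, Platr11 and 2610509F24Rik, averaged 3.67 and 3.87 CPM in WT ESCs and were at 0 to 0.0551 CPM in the 6 KO samples. All 7 pluripotency markers examined (Pou5f1, Sox2, Nanog, Zfp42, Esrrb, Klf4 and Tfcp2l1) were detected in each group. Their summed levels at day 0 were 3068 to 3588 CPM in WT and 4359 to 4671 CPM in KO, without overlap. At day 3 they were 627 to 1149 CPM in WT and 1115 to 1199 CPM in KO. The part of this day 0 difference in the members' results was not tested. The 8 mesendoderm markers summed to 932 to 1817 CPM in WT day 3 cells but to 76.7 to 152 CPM in KO day 3 cells. The 6 neuroectoderm markers summed to 156 to 179 CPM in WT day 3 and 252 to 279 CPM in KO day 3 cells. The part of both differences in the day 3 results was not tested. The 10 fibroblast markers, each detected in every group although Lum was at 0 in KO day 0 replicate 2, summed to 98.1 to 381 CPM at day 0 and 44.8 to 129 CPM at day 3. In such bulk samples, fewer cells of a type and less RNA per cell cannot be told apart.

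Replicate 1 of day 3 stood apart in the members on the high side, and WT day 3 replicate 3 on the low side. The KO day 3 replicate 1 sample was the highest of the 6 day 3 samples for 60 of the 86 members. Its median deviation from the day's mean was 0.24 (log2), and WT day 3 replicate 1 deviated by 0.12. The WT day 3 replicate 3 sample deviated by -0.16 and was the lowest of the 6 for 44 members. No fit left out replicate 3 of both genotypes. KO day 3 replicate 1 also had the most alignments to several places, 89.9 per 100 reads on genes. These alignments averaged 83.6 ± 5.47 per 100 reads in KO day 3 and 74.1 ± 6.18 in WT day 3 samples (SD, n = 3). Their part in the day 3 results was not tested, and counts without both day 3 replicate 1 samples, chosen after seeing the data, are given beside those results.

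The members together took 2.59% ± 0.117 of the reads on genes in WT day 0, 2.51% ± 0.0929 in KO day 0, 2.76% ± 0.168 in WT day 3 and 2.79% ± 0.239 in KO day 3 samples (SD, n = 3). At each day the genotypes thus differed by less than the SD of either group. Single members spanned a wide range of levels, with means over the 12 samples from 0.54 to 2966 CPM and a median of 150.0 CPM. Per kilobase of mRNA, the median level was 306 CPM for the small subunit, 184 CPM for the large subunit, 587 CPM for the P stalk and 77.2 CPM for the paralogs. Gene means ranged from 1.23 to 2966 CPM within the large subunit and from 2.29 to 1306 CPM within the small subunit. Counted reads were thus far from equal even among the genes of 1 subunit.

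Levels were also set beside the sequence that members share with their copies. A median of 39.9% of the 100-base words of a member's mRNA (range 0% to 98.4%) occurred exactly in a transcript of another gene. A read of 100 bases from such a word may align equally well to both genes, although how these reads were placed was not examined. Across the 77 canonical genes, the share of copied words was negatively related to the level per kilobase of mRNA (Spearman's rho of -0.64) and less so to the level per kilobase of words without a copy (-0.16). With up to 2 mismatches allowed in a copy, the values were -0.27 and 0.29. These are descriptions across genes that share the same libraries, and genes are not independent replicates. Rps27, a zinc finger protein of the small subunit, illustrated the extreme: 98.4% of its words had a copy and its level was 13.6 CPM per kilobase of mRNA. Its paralog Rps27l, which has no exactly copied word, reached 305 CPM per kilobase.

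**Figure D1:**
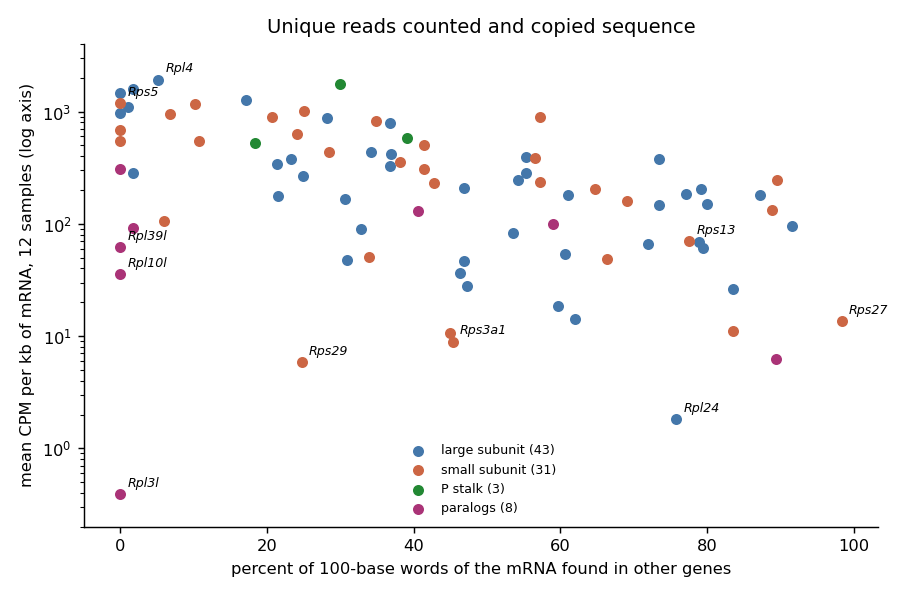
Mean level of each ribosomal protein gene over the 12 samples, in CPM per kilobase of mRNA on a log axis, against the percentage of its 100-base words found exactly in transcripts of other genes. Each point is 1 gene, coloured by role, and genes with many copied words, such as Rps27 at 98.4%, lay lower on the whole, with exceptions such as Rps10 (89.5% copied, 248 CPM per kilobase).

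Reads that did fall on copies were few in sum but large for some members. Of 841 annotated pseudogenes matched to a member, 646 had at least 1 read, and together they took a mean of 0.132% of reads in WT day 0, 0.133% in KO day 0, 0.151% in WT day 3 and 0.155% in KO day 3 samples. The 10 with most reads held 79.9% of these. Rps4l, a copy of Rps4x that GENCODE lists as a pseudogene, averaged 312 CPM in WT day 0 samples. It was not matched to a member, so its reads are in none of these values. For 6 members more reads lay on the pseudogenes than on the gene itself. They were Rps3a1 (96.9% of the reads of gene and pseudogenes), Rps29 (84.4%), Rpl24 (82.9%), Rps13 (70.3%), Rpl29 (54.6%) and Rps7 (53.2%). For Rps3a1, which belongs to the small subunit, a single pseudogene, Rps3a3 (chr13:108670603-108671397), averaged 5217 reads against 169.2 on the gene. For the P stalk gene Rplp0 the share was 39.9%, most of it on Gm8730 (chr8:102864845-102865798) with 6823 reads. The following coding words, printed to show what a copied word looks like, occurred unchanged in transcripts of 5 other genes (Rps3a1) and 2 other genes (Rplp0).
Rps3a1: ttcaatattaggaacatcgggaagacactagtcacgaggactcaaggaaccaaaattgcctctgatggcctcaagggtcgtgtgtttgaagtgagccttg
Rplp0: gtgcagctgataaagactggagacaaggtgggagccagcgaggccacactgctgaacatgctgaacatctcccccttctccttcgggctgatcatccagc
They are bases 248 to 347 and 593 to 692 of the respective mRNAs, inside the coding sequence. Levels of such members are uncertain, since the counting could split their reads.

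In undifferentiated cells, few ribosomal protein genes passed the test between KO and WT. With edgeR's quasi-likelihood test, the replicate number as a block and an adjusted p below 0.05 over all genes tested, 2 members were higher in KO (9.56% of all genes were) and 7 were lower (10.9% of all genes). The median log2 fold change of the members was 0.02, beside -0.009 over all genes. A member that did not pass is not thereby shown to be at the WT level. Among the 77 canonical genes 0 were higher and 6 lower by this test, and the other 3 calls were paralogs. With the block set within each day, 6 members were higher (16.8% of all genes) and 9 lower (18.0%). Those gained were Rpl5, Rpl3, Rps19bp1 and Rps12, higher by 0.32, 0.28, 0.29 and 0.19 (log2), and Rpl27 and Rpl7, with differences of -0.41 and -0.20. Leaving out 1 day 0 sample at a time kept 2 higher and gave 3 to 9 lower, with 3 when WT day 0 replicate 3 was left out, 4 without KO day 0 replicate 2 and 9 without WT day 0 replicate 1.

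The 2 members that rose were paralogs of X-linked genes. Their log2 differences were the largest among the members, although that of Rpl3l, a member at the limit of detection that did not pass the test, came close to that of Rpl10l. Rpl39l (ENSMUSG00000039209, chr16:10170226-10174911) encodes a near copy of Rpl39, a short protein of the peptide exit tunnel, and is known from male germ cells and stem cells. Its level was 19.7, 29.4 and 21 CPM in the WT day 0 samples and 83.3, 91.3 and 103 CPM in the KO day 0 samples. At day 3 it was 2.89, 1.78 and 1.86 CPM in WT and 21.4, 20.1 and 14.8 CPM in KO. The groups did not overlap at either day, and every KO day 0 sample was above every other sample of the series. The KO level was 4.01-fold the WT level at day 0 (log2 2.00, SE 0.21, adjusted p = 0.000316) and 8.54-fold at day 3 (log2 3.09, SE 0.24, adjusted p = 5.01e-05). From day 0 to day 3 Rpl39l fell by 3.41 on the log2 scale in WT (adjusted p = 4.96e-06) and fell by 2.32 in KO (adjusted p = 1.11e-05).

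Rpl10l (ENSMUSG00000060499, chr12:66283379-66284401) is an intronless copy of Rpl10 that replaces it in male meiosis, when the X chromosome is silent. It was at 39.7, 48.8 and 23.7 CPM in WT day 0 and at 90.1, 111 and 77.1 CPM in KO day 0 samples. At day 3 the WT samples had 4.15, 2.17 and 3.38 CPM and the KO samples 12, 11.8 and 12.5 CPM. Again the genotypes did not overlap at either day. The difference was 2.51-fold at day 0 (log2 1.33, SE 0.24, adjusted p = 0.00414) and 3.75-fold at day 3 (log2 1.91, SE 0.27, adjusted p = 0.000868). Over the days Rpl10l fell by 3.49 (log2) in WT and fell by 2.91 in KO.

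The canonical partners of both paralogs moved little. Rpl39 averaged 165 ± 13.2 CPM in WT and 158 ± 15.8 in KO at day 0, then 183 ± 27.9 and 193 ± 44.9 at day 3 (SD, n = 3), and the genotypes overlapped at both days. Rpl10, which completes maturation of the large subunit, averaged 80.1 ± 8.75 and 90.5 ± 17.5 CPM at day 0 and 64.9 ± 10.9 and 68.5 ± 11.5 CPM at day 3. Neither passed the test between genotypes (adjusted p = 0.608 and 0.592 for Rpl39, 0.43 and 0.708 for Rpl10, at day 0 and day 3). Rpl39l accordingly made up 12.4% ± 3.07 of the reads of its pair in WT and 37.1% ± 4.58 in KO at day 0, and 1.16% ± 0.161 and 9.0% ± 1.62 at day 3. The share of Rpl10l went from 31.2% ± 5.45 to 50.6% ± 1.81 at day 0 and from 4.68% ± 0.847 to 15.2% ± 2.05 at day 3. An exact copy elsewhere was found for 91.6% of the words of Rpl10 and 0% of those of Rpl10l, so the counting could favour the paralog in this last share.

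Rpl22l1 (ENSMUSG00000039221, chr3:28805436-28807424), the paralog of the RNA-binding protein Rpl22, changed in the opposite direction. An overlapping gene shares 13.7% of the words of its mRNA. It was at 91.8, 67.1 and 74.3 CPM in WT day 0 and 66.6, 51.7 and 53.3 CPM in KO day 0 samples. At day 3 the values were 98.5, 76.7 and 74.6 CPM in WT and 86.2, 57.4 and 53.2 CPM in KO. The genotypes were apart at day 0 and overlapped at day 3, where KO was below WT in each of the 3 same-numbered pairs. Its fold change was 0.737 at day 0 (log2 -0.44, SE 0.09, adjusted p = 0.00824) and 0.778 at day 3 (log2 -0.36, SE 0.09, adjusted p = 0.0139). Rpl22 itself did not pass the test at day 0 (log2 0.03, adjusted p = 0.777) and was higher in KO at day 3 (461 ± 28.9 against 533 ± 60.2 CPM, log2 0.21, SE 0.06, adjusted p = 0.0232). Rpl22l1 thus made up 15.7% ± 1.42 of the pair's reads in WT and 11.8% ± 0.844 in KO at day 0, and 15.2% ± 1.2 and 10.8% ± 1.49 at day 3. For 40.6% of the words of Rpl22l1 and 0% of those of Rpl22 an exact copy was found elsewhere, so the counting could lower the paralog's share.

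**Figure D2:**
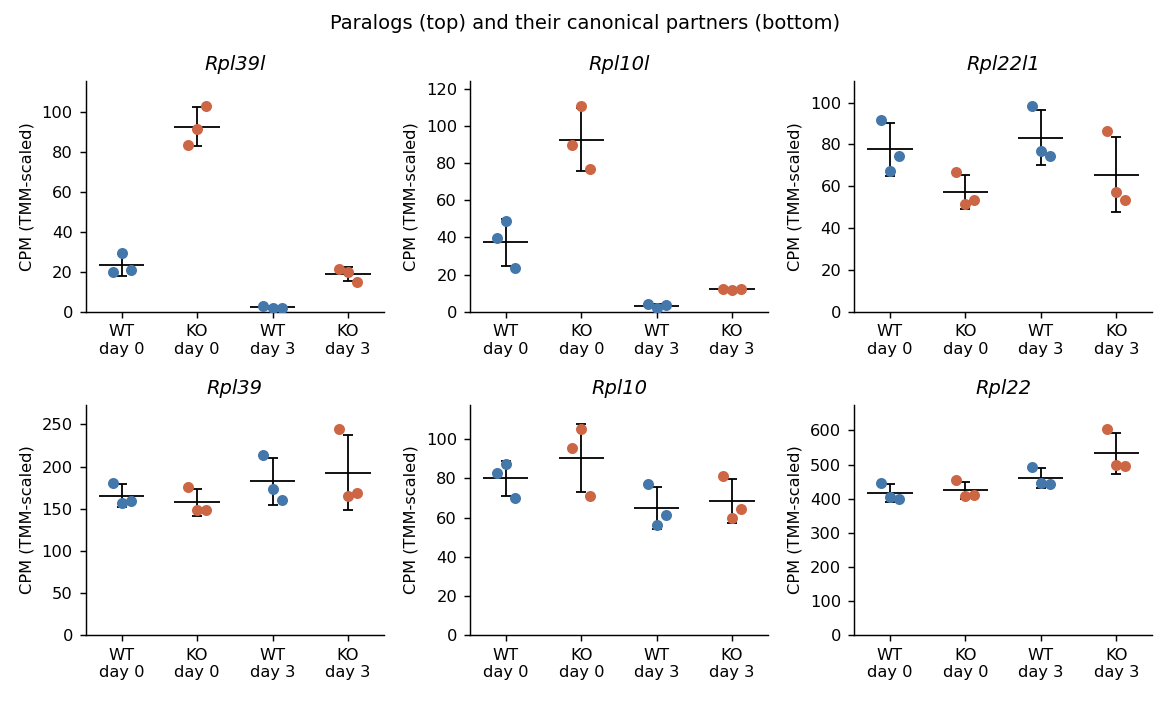
CPM of Rpl39l, Rpl10l and Rpl22l1 (top) and of their canonical partners Rpl39, Rpl10 and Rpl22 (bottom) in the 12 samples. Points are samples, lines are group means and bars are SDs (n = 3). Rpl39l rose from 23.4 ± 5.31 CPM in WT to 92.7 ± 10.1 CPM in KO at day 0, while Rpl39 stayed between 148 and 181 CPM at that day.

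The other paralogs did not pass the test between genotypes, but Rpl3l did at day 3 with the block within each day (log2 1.84, adjusted p = 0.0406). Since Rpl3l was admitted to the test only through a KO sample, this call is no support for a rise in KO. Rpl3l, the muscle form of Rpl3, was barely expressed, at 0.535 ± 0.199 CPM in WT and 1.18 ± 0.438 in KO at day 0 and at 0.0958 ± 0.0829 and 0.35 ± 0.066 CPM at day 3. Its log2 differences of 1.13 and 1.81 had SEs of 0.5 and 0.71 (adjusted p = 0.141 and 0.0782). Rpl7l1, an assembly factor of the large subunit, averaged 287 ± 58.4 and 251 ± 22.1 CPM at day 0, and Rpl36al, an autosomal copy of X-linked Rpl36a, 58.1 ± 1.67 and 55.3 ± 2.11 CPM. The p53-responsive Rps27l averaged 149.9 ± 2.44 CPM in WT and 155 ± 0.721 in KO. Rps27rt, a retrotransposed copy of Rps27, was at 1.43 to 3.13 CPM in the 12 samples. Of their canonical partners, Rpl3, Rpl7, Rpl36a, Rpl37, Rps4x and Rps27 did not pass at either day either, with log2 differences from -0.20 (Rpl7, day 0) to 0.43 (Rps27, day 3). With the block within each day Rpl3 was higher in KO at both days (0.28 and 0.34, adjusted p = 0.0255 and 0.00827) and Rpl7 was lower at day 0 (adjusted p = 0.0333). Rps4l, a copy of Rps4x that GENCODE lists as a pseudogene and that is therefore no member, averaged 312 ± 22.9 CPM in WT and 353 ± 11.1 in KO at day 0, and 129 ± 14.6 and 245 ± 20.2 CPM at day 3. Its day 3 difference passed the test (log2 0.93, SE 0.08, adjusted p = 7.34e-05), and so did the difference between its KO effects at both days (0.75, SE 0.11, adjusted p = 0.00259).

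Most canonical genes that were lower in KO lay on chromosome 11. Of the 7 members called lower at day 0, Rpl19, Rpl23, Rpl23a, Rpl26 and Rps27a lie on chromosome 11 and Rpl22l1 on chromosome 3. Rpl26 (ENSMUSG00000060938, chr11:68901583-68906989), known to bind the p53 mRNA, was at 470.2, 435 and 424 CPM in WT day 0 and 373, 334 and 313 CPM in KO day 0 samples. At day 3 it was at 556, 481 and 476 CPM in WT and 451, 351 and 343 CPM in KO. The genotypes did not overlap at either day, and the fold change was 0.766 at day 0 (log2 -0.39, SE 0.07, adjusted p = 0.00364) and 0.753 at day 3 (log2 -0.41, SE 0.07, adjusted p = 0.00171).

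Rpl19 was at 159, 143 and 151 CPM in WT and 124, 119.7 and 124 CPM in KO at day 0, again without overlap (log2 -0.30, SE 0.07, adjusted p = 0.0129). Rpl23, which binds Mdm2, was at 448, 419 and 436 CPM in WT and 373, 312 and 327 CPM in KO (log2 -0.37, adjusted p = 0.00516). Rpl23a, at the exit of the tunnel where signal recognition particle docks, was at 90.4, 84.7 and 93.2 against 80.2, 58.6 and 61.6 CPM (log2 -0.44, adjusted p = 0.00888). Each of these 3 genes was lower in every KO day 0 sample than in any WT day 0 sample. At day 3 they were lower as well, by log2 differences of -0.26, -0.27 and -0.30 (adjusted p = 0.017, 0.0156 and 0.0331). The genotypes then overlapped for Rpl23 and Rpl23a and stayed apart for Rpl19. Rps27a, a ubiquitin fusion, averaged 123 ± 7.43 and 93.2 ± 11.1 CPM at day 0 (log2 -0.41, adjusted p = 0.0465) and passed the test at day 0 but not at day 3 (log2 -0.27, adjusted p = 0.127), where it passed with the block within each day (log2 -0.28, adjusted p = 0.00557).

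All 7 members on chromosome 11, Rpl27 and Rpl38 included, were below 0 at both days, with median log2 differences of -0.39 and -0.27. The other genes of that chromosome moved in the same direction, a pattern noticed after seeing the data. The 1278 other genes tested there had a median log2 difference of -0.25 (0.838-fold) at day 0 and -0.35 (0.784-fold) at day 3, and 77.5% and 79.4% of them were below 0. On chromosome 8 the 787 other genes had medians of -0.18 at both days, and on chromosome X 561 genes had medians of -0.15 and -0.05. The 17 remaining chromosomes stayed between -0.01 and 0.08 at day 0 and between -0.02 and 0.09 at day 3. In the samples themselves, the median of the other chromosome 11 genes was 0.09 to 0.15 above the day 0 mean in WT and -0.13 to -0.11 in KO, without overlap. DNA was not measured, and the part of the chromosome in the members' differences was not tested. When each chromosome was centred on its median, 2 members were higher at day 0 (9.27% of all genes) and 2 were lower (9.14%). The lower ones were Rpl22l1 (log2 -0.46, adjusted p = 0.00765) and Rpl7 (-0.26, adjusted p = 0.0351), and none of the chromosome 11 members remained among them.

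**Figure D3:**
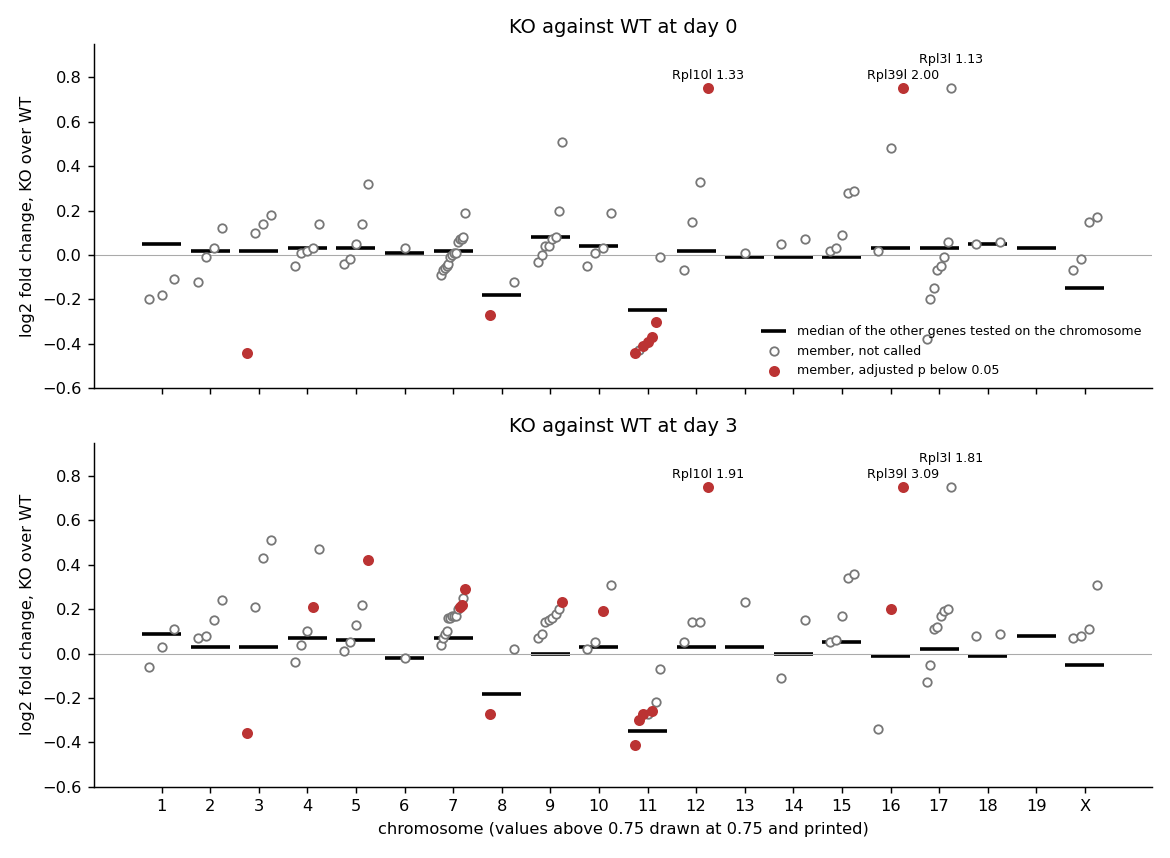
Log2 fold change of KO over WT for each ribosomal protein gene at day 0 (top) and day 3 (bottom), by chromosome. Filled points passed the test (adjusted p below 0.05), open points did not, and thick lines are medians of the other genes tested on the chromosome, which fell to -0.25 and -0.35 on chromosome 11.

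**Figure D4:**
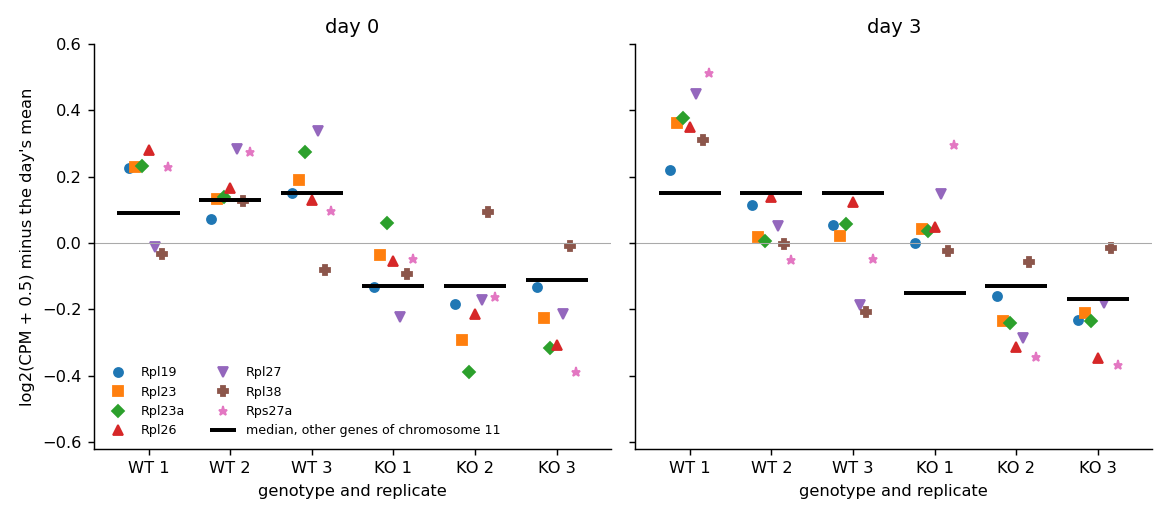
Levels of the 7 ribosomal protein genes of chromosome 11 in each sample, as log2(CPM + 0.5) minus the mean of the 6 samples of the day. Thick lines are medians of the other genes of chromosome 11, which at day 0 were above 0 in the 3 WT samples (0.09 to 0.15) and below 0 in the 3 KO samples (-0.13 to -0.11).

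At day 3 the members were shifted slightly upward in KO cells. Of the 86 members, 70 had a log2 difference above 0 and the median was 0.13, beside -0.002 over all genes. By the test 10 members were higher (14.3% of all genes were) and 6 lower (16.7%), which are 11.6% and 6.98% of the members. The small subunit had 3 higher and 0 lower (median 0.16), the large subunit 4 and 5 (0.08) and the P stalk 1 and 0 (0.20). With the block within each day 26 members were higher (22.5% of all genes) and 7 lower (24.4%), so that the share of members called higher, 30.2%, was above that of all genes in that fit but not in the former. With library size alone as the scaling, the median was 0.05, beside -0.07 over all genes, and 2 were higher (11.2% of all genes) and 6 lower (19.8%). With each chromosome centred, 4 were higher (13.4%) and 1 lower (14.8%).

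Apart from Rpl39l and Rpl10l, the rises were small. Rpl5, which joins 5S rRNA and can bind Mdm2, was at 53.8, 35.3 and 39.5 CPM in WT and 68.6, 49.2 and 53.5 CPM in KO (log2 0.42, SE 0.13, adjusted p = 0.0377). Rps13 was at 32.6, 34.5 and 35.5 against 42.7, 39.4 and 43.6 CPM (log2 0.29, SE 0.09, adjusted p = 0.0277). Rplp1, a stalk protein that recruits translation factors, was at 856, 867 and 781 against 1061, 959 and 927 CPM (log2 0.23, SE 0.07, adjusted p = 0.0309). The genotypes overlapped for Rpl5 and were apart for Rps13 and Rplp1. Of the reads of gene and pseudogenes, 28.1% for Rpl5, 70.3% for Rps13 and 8.4% for Rplp1 lay on the pseudogenes. With pseudogene counts added, 8 members were higher at day 3 (14.4% of all genes) and 6 lower (16.7%).

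Rpl13a, also known for silencing inflammatory mRNAs, averaged 1038 ± 46.8 CPM in WT and 1208 ± 91.4 in KO at day 3 (log2 0.22, SE 0.06, adjusted p = 0.022), and 55.2% of the words of its mRNA are shared with an overlapping gene. Further genes called higher included Rpl22, Rpl35a and Rps26, with log2 differences of 0.19 to 0.21. The other stalk genes, Rplp0 and Rplp2, had differences of 0.13 and 0.20 (adjusted p = 0.229 and 0.101, and 0.0369 for Rplp2 with the block within each day), and Rpsa, a small subunit protein known also as the laminin receptor, 0.09 (adjusted p = 0.241). Leaving out 1 day 3 sample at a time gave 2 to 8 members higher, with 2 without KO day 3 replicate 1 and 3 without WT or KO day 3 replicate 2, and 1 to 5 lower, with 1 without KO day 3 replicate 3. Without replicate 1 of both genotypes 10 were higher (16.4% of all genes) and 3 lower (13.9%).

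The difference between the KO effects of both days passed the test for 1 member. Tested as an interaction, Rpl39l had a larger KO effect at day 3 than at day 0 (log2 1.09, SE 0.31, adjusted p = 0.0397), while 8.21% of all genes were called higher and 7.34% lower. No member was called lower by edgeR's test or by DESeq2, and 0 had an unadjusted p below 0.05 in that direction, against 6 in the other. The call of Rpl39l was lost when any of 7 samples was left out alone (KO day 0 replicates 1 and 2, KO day 3 replicates 1 and 2, WT day 0 replicates 2 and 3, and WT day 3 replicate 2). The median of the members was 0.12, beside 0.002 over all genes. With the block within each day 4 members were called (16.2% of all genes), among them Rplp1, Rpl13a and Rpl39l.

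From day 0 to day 3 in WT cells, the number of members called lower depended on replicate 1 of day 3. By the test 5 members were higher at day 3 (30.7% of all genes were) and 18 lower (25.5%), and the median of the members was -0.06, beside 0.073 over all genes. The lowest fold changes belonged to the paralogs Rpl10l, Rpl39l and Rpl3l (log2 -3.49, -3.41 and -2.37), the last below 1 CPM in every WT sample. Rpl28 of the large subunit was at 41.6, 40.7 and 40.6 CPM at day 0 and 24.4, 29.6 and 26.1 CPM at day 3, without overlap (log2 -0.62, SE 0.11, adjusted p = 0.00112). Rpl34, at 26.1 ± 2.05 and 17.4 ± 4.24 CPM, fell by 0.60 (adjusted p = 0.0197), and 32.5% of the reads of gene and pseudogenes lay on its pseudogenes. Rps3a1 fell by 1.10 (10.8 ± 3.52 to 5.05 ± 1.57 CPM, adjusted p = 0.0101), but with the reads on its pseudogenes added the difference was 0.02 (adjusted p = 0.806).

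Among the rises in WT were Rpl41 (log2 0.26, 502 ± 26.5 to 601 ± 19.6 CPM, adjusted p = 0.0213), Rps26 (0.20), Rpl26 (0.18) and Rpsa (0.14). Rpl41 encodes the shortest protein of the ribosome. The balance of calls depended on the scaling, with 18 higher (36.2% of all genes) and 11 lower (20.9%) by library size alone, where the median was 0.06 for the members and 0.19 for all genes. With RLE size factors 2 were higher (28.4%) and 22 lower (27.7%), and with DESeq2 3 (28.1%) and 24 (27.8%), each with a member median of -0.10. Without both day 3 replicate 1 samples 1 was higher (29.3% of all genes) and 34 were lower (28.0%), the latter 39.5% of the members, and their median was -0.15. Leaving out 1 sample gave 11 to 22 lower, with 11 without WT day 3 replicate 2, and 1 to 3 higher, with 1 without WT day 0 or WT day 3 replicate 2.

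In KO cells 17 members were higher at day 3 (29.4% of all genes) and 8 lower (27.2%), with a median of 0.04 beside 0.028 over all genes. Rps26, at the mRNA exit of the small subunit, was at 391, 387 and 399.9 CPM at day 0 and 536, 494 and 494 CPM at day 3, without overlap (log2 0.37, SE 0.06, adjusted p = 0.000813). Rps3, at the mRNA entry, averaged 1161 ± 113 and 1449 ± 114 CPM (0.32, adjusted p = 0.00428), Rpl22 rose by 0.32, Rpl23a by 0.29 and Rplp0 by 0.27 (log2). Besides Rpl10l (-2.91), Rpl39l (-2.32) and Rpl3l (-1.69), the last admitted to the test only through KO day 0 replicate 1 and so no support for a fall, the members called lower were Rps19bp1 (-0.72, 39.1 ± 2.12 to 23.7 ± 2.17 CPM, adjusted p = 0.000595), Rpl28 (-0.65), Rpl34 (-0.49), Rpl10 (-0.40) and Rpl5 (-0.36).

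The calls in KO also moved with the scaling. They were 27 higher (32.8% of all genes) and 5 lower (23.9%) by library size alone, with a member median of 0.11 beside 0.1 over all genes. With RLE size factors they were 10 (28.0%) and 9 (28.9%), and with DESeq2 11 (28.2%) and 12 (29.3%). Without both day 3 replicate 1 samples they were 5 higher (29.1%) and 17 lower (27.6%), with a member median of -0.02. Leaving out 1 sample gave 5 to 11 higher, with 5 without KO day 0 or KO day 3 replicate 1, and 4 to 11 lower, with 4 without KO day 3 replicate 2.

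Other genes of the translation machinery were examined as lists, by their counts beside the members. Of 44 ribosome biogenesis genes, which make rRNA and assemble the subunits, 38 were lower at day 3 in WT and 0 higher (median -0.60), and 27 were lower and 1 higher in KO (median -0.35), beside 25.5% of all genes lower in WT and 27.2% in KO. Nucleolin (Ncl), the main protein of the nucleolus, was at 5217 ± 533 CPM in WT day 0 and 3512 ± 412 CPM in WT day 3 samples (log2 -0.57, adjusted p = 0.00132). The 77 canonical ribosomal protein genes had 5 higher and 13 lower in WT, with a median of -0.05, and 17 and 4 in KO, with 0.04. Mitochondrial ribosomal proteins, of which 77 of 78 were tested, had 3 higher and 30 lower in WT (median -0.20) and 8 and 19 in KO (-0.11). The biogenesis list was thus lower at day 3 in a larger share of its genes than the proteins that it assembles, a description to which no test was applied.

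Between genotypes, 9.56% of all genes were higher and 10.9% lower at day 0, and 14.3% and 16.7% at day 3. The biogenesis genes had 0 higher and 6 lower at day 0 (median -0.09) and 10 higher and 1 lower at day 3 (0.20). Among 20 other TOP mRNA genes, elongation and initiation factors for the most part, 2 were higher and 2 lower at day 0, a share near that of all genes, and 3 and 1 at day 3. The lower ones at day 0, Rack1 (log2 -0.32, adjusted p = 0.00431) and Npm1 (-0.46, adjusted p = 0.0272), also lie on chromosome 11. Fau did not pass the test between genotypes.

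Of 10 growth regulators, 2 were lower and 0 higher in KO at day 0. Mycn, a transcription factor that drives ribosome production, was at 303, 225 and 301 CPM in WT and 129, 49.1 and 85.3 CPM in KO (log2 -1.70, SE 0.28, adjusted p = 0.00314). Larp1, which binds the TOP tract and lies on chromosome 11, averaged 765 ± 56.6 and 483 ± 40.4 CPM (log2 -0.66, SE 0.11, adjusted p = 0.0036). The genotypes did not overlap for either gene, and neither passed the test at day 3 (adjusted p = 0.233 and 0.231).

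**Figure D5:**
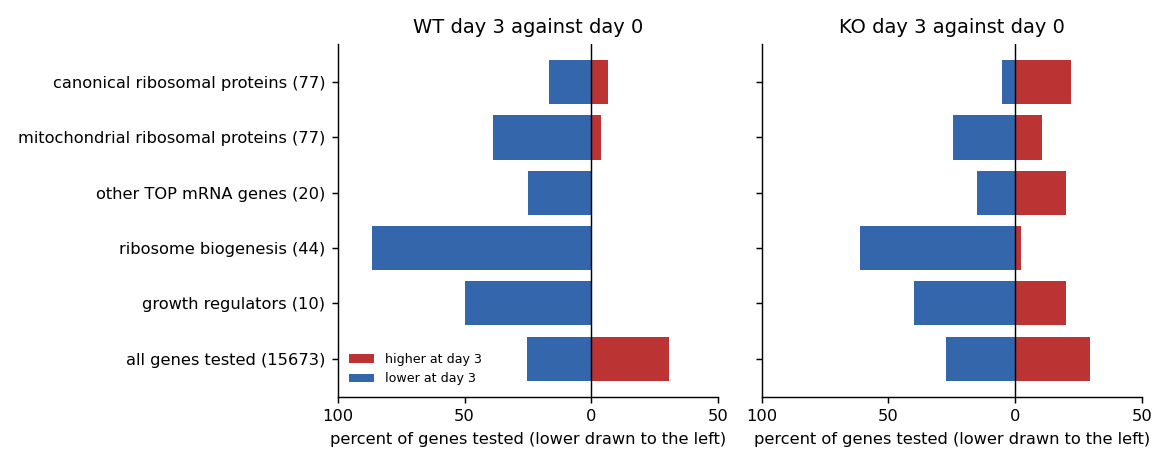
Percentage of the tested genes of each list called higher (right) or lower (left) at day 3 than at day 0, in WT and in KO, with the number of genes in brackets. Of the 44 ribosome biogenesis genes 38 were lower in WT, against 13 of the 77 canonical ribosomal protein genes, beside 25.5% of all genes.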

How the data were processed

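RNA of the 12 samples was sequenced as stranded, poly(A)-selected single reads of 100 bases. Reads were trimmed with cutadapt 1.3, aligned with STAR 2.4.2a and counted per gene with HTSeq 0.6.1 against Ensembl release 82 of GRCm38, per the study's methods and the submitters' processing notes. The authors deposited raw counts per gene and sample, not normalized, in which reads aligned to several places are left out. The last 5 lines of each table, which name no gene, were left out of library sizes (reads on no feature numbered 2356870 to 3917129 per library). Depth was 17455927 to 23910943 reads on genes.

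Symbols were matched by Ensembl ID to GENCODE M21 (46005 of 46517 genes). Genes above 1 CPM in at least 1 sample were tested with edgeR 4.0.16 (R 4.3.3) by the quasi-likelihood test after TMM, with 1 term per group and the replicate number as a block, in 5 comparisons, adjusted by Benjamini-Hochberg over 15673 genes. The fit was tested on simulated data. Members and lists were chosen with earlier results of these data known. The text names, per comparison, up to 6 called members with the largest rise and fall, the paralogs with their partners, the P stalk genes, Rpsa and Rps19bp1. Rpl29, Rpl24, Rps7, Rps29, Rpl27, Rpl38, Rpl35a, Rps12, Rps10 and the named genes of other lists were chosen after their values were seen. Single values of some genes are not reported here, although counts include them.

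Same-numbered samples of a day deviated together (r of 0.34 to 0.72 in 6 of 6 pairs, over 10901 genes), but not between days (-0.24 to 0.09), so the labels' numbers pair samples within a day. The block within each day is therefore given beside the counts. Where no block is named, values come from the block across days, between which same-numbered samples did not deviate together. Counts of the gene lists are given with the block across days only.

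Copied words were read from the shortest principal mRNA of each member instead of its longest transcript, and compared with transcripts of other genes, not with the genome. Pseudogenes were assigned by at least 40 shared 31-base words or by symbol, and Rps4l was matched by neither. Alternatives were other scalings (RLE, library size only, TMM without the members), blocks, filters, limma 3.58.1 and DESeq2 1.42.0, pseudogene counts added, and samples left out. Centring of chromosomes and omission of both day 3 replicate 1 samples were added after seeing the data.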

Additional observations from a re-analysis of the deposited data

Results flagged for a closer look

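Rpl39l had a larger difference between KO and WT at day 3 than at day 0, by 1.09 on the log2 scale in the interaction test (SE 0.31, adjusted p = 0.0397). All 3 KO samples were above all 3 WT samples at both days. The copy of Rps4x annotated as a pseudogene, Rps4l, was likewise picked out by the interaction test, with a value of 0.75 (SE 0.11, adjusted p = 0.00259), and its KO samples were above its WT samples at both days.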

How the results depend on the processing

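Both the counts of members called and their medians depended on the fit and the scaling. By library size alone the medians were 0.05 at day 3, 0.06 for WT and 0.11 for KO over the days. Over all genes they were -0.07, 0.19 and 0.1 in that scaling. The member median minus that of all genes was 0.13, -0.13 and 0.01, the same as with TMM. Without the block 4 members were lower in KO at day 0 (9.14% of all genes). At day 3, 4 were higher in KO (11.7%) and 3 lower (14.7%). Over the days 3 were higher in WT (29.0%), and 9 were higher (27.7%) and 5 lower (25.2%) in KO. With the replicate block within each day 6 were higher at day 0 (16.8% of all genes), 26 at day 3 (22.5%) and 4 for the interaction (16.2%). That block could not be fitted for the comparisons over days, in which it is nested. With the 6 samples of a day alone, 6 were higher at day 0 (18.2% of all genes) and 21 of 85 tested at day 3 (22.5%). Library size alone gave 2 higher at day 3 (11.2%), and 18 higher (36.2%) and 11 lower (20.9%) for WT over the days. For KO over the days it gave 27 higher (32.8%) and 5 lower (23.9%). RLE factors gave 2 higher for WT (28.4%) and 10 for KO (28.0%) over the days. DESeq2 gave 16 higher at day 3 (17.3%), 3 for WT (28.1%) and 11 for KO (28.2%) over the days, and 2 for the interaction (10.7%). Without a filter on low counts 4 were higher at day 3 (6.89%), 2 for WT (16.7%) and 10 for KO (16.1%) over the days.

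The 2 further alternatives were chosen after seeing the data. Centring each chromosome left 2 lower at day 0 (9.14% of all genes), and 4 higher (13.4%) and 1 lower (14.8%) at day 3. The day 3 values were 0.09 for Rpl19, 0.08 for Rpl23 and 0.05 for Rpl23a (log2), reversed in sign. Omitting both day 3 replicate 1 samples gave 5 higher at day 0 (12.5%) and 3 lower at day 3 (13.9%). Over the days it gave 1 higher (29.3%) and 34 lower (28.0%) for WT, and 5 higher (29.1%) and 17 lower (27.6%) for KO. The medians over the days were -0.15 for WT and -0.02 for KO. With pseudogene counts added, other than those of Rps4l, Rps3a1 was at 0.02 for WT over the days. The members then took 2.72% of reads in WT day 0 and 2.64% in KO day 0. At day 3, 8 members were higher in KO (14.4% of all genes) and 6 lower (16.7%). Over the days 5 were higher (30.9%) and 15 lower (25.6%) in WT, and 17 higher (29.5%) and 6 lower (27.3%) in KO.

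Leaving out 1 sample at a time gave, for KO against WT, 2 higher and 3 to 9 lower at day 0 and 2 to 8 higher and 1 to 5 lower at day 3. Over the days it gave 1 to 3 higher and 11 to 22 lower in WT, 5 to 11 higher and 4 to 11 lower in KO, and for the interaction 0 to 1 higher and 0 lower. Shares over all genes are not given for the fits with 1 sample left out. Medians ranged from -0.02 to 0.05, 0.07 to 0.18, -0.11 to -0.03, -0.01 to 0.05 and 0.06 to 0.18 in these comparisons, and the share of reads from 2.52% to 2.63%, 2.46% to 2.54%, 2.67% to 2.83% and 2.65% to 2.87% in WT day 0, KO day 0, WT day 3 and KO day 3. The cause of these changes was not tested. Over the named genes, 3100 values kept direction and side of the threshold, 228 lost and 78 gained the call, and 59 others moved by more than the spread. A 100-base read limits what can be counted where copies are exact.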

Other observations

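Rpl39 lies 6275 bases from Upf3b on the X chromosome, on the same strand. Upf3b, a factor of nonsense-mediated decay, was at 45.4 to 55.8 CPM in the 6 WT samples and at 0 to 0.661 CPM in the 6 KO samples, whereas Rpl39 differed between genotypes by log2 values of -0.07 and 0.07 and did not pass the test at either day.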
